A study of Ovis aries with 6 samples.

Results

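The 10 genes described here are receptors, ligands and target genes of Notch signalling: NOTCH1, NOTCH2, NOTCH3, JAG1, JAG2, DLL1, HES1, HEY1, HEY2 and HEYL. They were found by gene symbol, and all 10 were present, each as 1 row, among the 26425 rows of the gene table. RNA sequencing was done on 6 samples of stromal vascular fraction cells of sheep fat, a mixed population that includes adipocyte precursors. In 3 samples the homeobox transcription factor MEOX2 was overexpressed (the MEOX2 samples), and 3 samples formed the control group labelled NC. The data columns of both groups carry the prefix pHBLV (pHBLV_MEOX2 and pHBLV_NC), so the NC cells are not taken here as untreated. The labels give adipocyte as the cell type of all 6 and name neither the promoter that drove MEOX2, the time of harvest nor the animals. The values are FPKM, reads normalised for gene length and sequencing depth, so levels can be compared between genes. Nothing in the labels says that the 3 samples of a group came from separate cultures or animals, so every p-value reflects sample-to-sample spread that may be technical.

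Notch receptors are membrane proteins that are activated by ligands of the Jagged and Delta-like families on a neighbouring cell. Ligand binding lets an ADAM protease and then the gamma-secretase complex cut the receptor, and the freed intracellular domain joins the DNA-binding protein RBPJ and Mastermind coactivators to switch on target genes. The HES and HEY genes, which encode basic helix-loop-helix repressors, are the targets most often used as readouts. In adipose tissue the pathway is known for restraining or delaying the conversion of precursors into fat cells, although its effect depends on the stage of differentiation. Transcript levels of the receptors do not measure their cleavage.

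The libraries held 11772772 to 12230863 reads in genes. MEOX2 itself was at 132.9 ± 23.0 FPKM (SD, n = 3) in the MEOX2 samples and 9.98 ± 0.910 FPKM (SD, n = 3) in NC. On the second principal component (22.2% of variance) the outlying library was NC sample 3. Of 11 mature adipocyte markers in the table, 8 were tested, 5 were lower with MEOX2 by limma and none was higher. Their summed level was 530.4 to 569.7 FPKM in the MEOX2 samples and 714.9 to 856.9 FPKM in NC, and leptin (LEP), a defining marker, had no read in any library. Most of that sum was RBP4 (413.3 ± 28.0 and 464.9 ± 44.5 FPKM, SD, n = 3 each, not called). FABP4, among the 5 called, was at 79.6 ± 9.72 and 235.3 ± 26.3 FPKM. The log2 change of LPL was 0.0046, and the other tested markers of that list had negative ones. Of 10 endothelial markers only EGFL7 passed a mean of 1 FPKM, EMCN had no read, and CDH5, KDR, TIE1, ESAM and PLVAP had under 5 reads in every library. Fewer cells of a type and less RNA per cell cannot be told apart in these bulk samples.

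None of the Notch genes abundant enough to test passed the threshold between MEOX2 and NC, and 1 of them, the target gene HES1, was lower in each MEOX2 sample than in each NC sample. That is 1 of 5 tested genes without overlap, a share near that of all genes tested (18.9%). NOTCH2 was the dominant receptor in every library, JAG1 was the only one of the 3 listed ligands with a mean above 1 FPKM, and the HEY genes were at the limit of detection. Of the 10 genes, 5 averaged 1 FPKM or more across the samples and were tested (NOTCH1, NOTCH2, NOTCH3, JAG1 and HES1). JAG1, at a mean of 1.30 FPKM, lay just above that limit, and HEY1, at 0.315 FPKM, was the first below it. Of these 5, 0 passed a limma adjusted p of 0.05, against 2.67% of all 13121 genes tested. At an unadjusted p under 0.05 there was 1 (HES1), where 13.4% of all genes had one (6.35% with a lower level), and limma voom on reads called 0, against 4.37% of all genes.

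**Figure D1:**
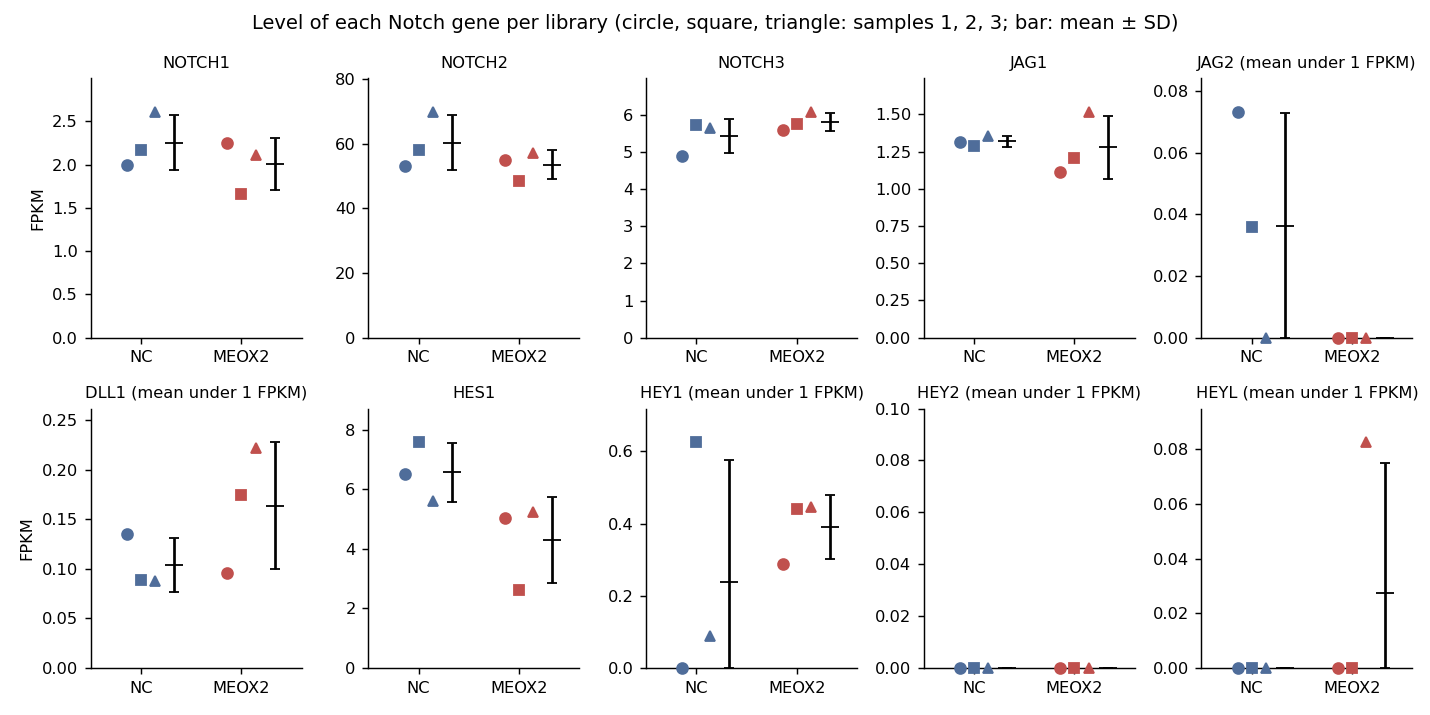
FPKM of the 10 Notch genes in each library, NC in blue and MEOX2 in red, with a separate vertical scale for each gene; symbols mark samples 1 to 3, and bars give the mean and SD (n = 3), cut at 0. HES1 alone has 2 groups that do not overlap (2.62 to 5.23 FPKM with MEOX2, 5.60 to 7.57 FPKM in NC), as do 18.9% of all genes tested.

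NOTCH2 (ENSOARG00000020442, chromosome 1, 96427312 to 96607126, minus strand, in the coordinates of the deposited table, whose build is not named) encodes a receptor broadly present in mesenchymal cells. It was at 55.0, 48.3 and 57.0 FPKM in MEOX2 samples 1 to 3 and at 53.2, 58.0 and 69.7 FPKM in NC samples 1 to 3. The groups overlapped, and NC sample 3 was the highest of the 6 libraries. The means were 53.4 ± 4.51 and 60.3 ± 8.49 FPKM (SD, n = 3 each), with a log2 change of -0.17 on the log2(FPKM + 1) scale (95% interval -0.42 to 0.089) and a limma adjusted p of 0.600. Without NC sample 3 the change was -0.058, without MEOX2 sample 2 it was -0.096, and without NC sample 1 it was -0.25. That library was also higher for long genes in general: the 1060 tested genes of at least 5000 bases had a median deviation of 0.088 on the log2 scale in NC sample 3, against -0.048 to 0.011 in the other 5 libraries. The part of this in the NOTCH2 and NOTCH1 values of NC sample 3 was not tested.

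NOTCH3 (chromosome 5, 7691090 to 7726339, plus strand), the receptor characteristic of smooth muscle cells and pericytes, was at 5.58, 5.74 and 6.06 FPKM in the MEOX2 samples and at 4.90, 5.73 and 5.63 FPKM in NC. The lowest MEOX2 sample lay below 2 of the NC samples, so the groups overlapped. The log2 change was 0.084 (95% interval -0.15 to 0.32; limma adjusted p = 0.819), and it was 0.024 without NC sample 1 and 0.056 without MEOX2 sample 3. Of 10 other smooth muscle and pericyte markers in the table, 8 were tested, and CNN1 and CSPG4 were higher by limma. KCNJ8, ABCC9, MCAM and PDGFRB had negative log2 changes (-0.35, -0.18, -0.14 and -0.021) and were not called. The summed level of these markers was 726.1 to 772.2 FPKM with MEOX2 and 631.9 to 637.2 FPKM in NC, most of it from TAGLN (502.2 ± 21.4 and 414.9 ± 3.37 FPKM, SD, n = 3 each, not called), and RGS5, a defining pericyte marker, had 5 reads in all 6 libraries together. Their part in the NOTCH3 level was not tested.

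NOTCH1 (chromosome 3, 2878995 to 2901864, plus strand), the receptor best known from blood and epithelial tissues, was at 2.25, 1.67 and 2.11 FPKM in the MEOX2 samples and at 1.99, 2.17 and 2.61 FPKM in NC. These values rested on 125 to 194 reads per library. The groups overlapped, and the lowest and highest libraries, MEOX2 sample 2 and NC sample 3, were the same as for NOTCH2. The log2 change was -0.11 (95% interval -0.45 to 0.22; limma adjusted p = 0.829), and it was -0.030 without MEOX2 sample 2, -0.038 without NC sample 3, and -0.17 without NC sample 1 or without MEOX2 sample 1.

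Read within each library, where scaling between libraries plays no part, NOTCH2 made up 85.4% to 88.7% of the summed FPKM of the 4 Notch receptors. NOTCH4, an endothelial receptor outside the 10 genes, was included in that sum at 0.503 to 0.835 FPKM. The share of NOTCH2 was 86.7%, 85.4% and 86.5% in the MEOX2 samples and 87.8%, 87.3% and 88.7% in NC, so the groups did not overlap. NOTCH3 showed the reverse, with 9.38% ± 0.693 of receptor FPKM with MEOX2 and 7.96% ± 0.741 in NC (SD, n = 3 each). NOTCH2 and NOTCH3 together held most of the sum, so their shares and their ratio are not separate results. The levels of both genes overlapped between the groups. The level of NOTCH2 was 9.86, 8.42 and 9.40 times that of NOTCH3 in the MEOX2 samples and 10.9, 10.1 and 12.4 times in NC. The difference in this log2 ratio was -0.27, with p = 0.1 in an exact two-sided permutation test, which cannot go lower with 3 samples a group. It was between -0.33 and -0.19 with each library left out in turn, and -0.19 without NC sample 3. NOTCH2 was 26.8 ± 2.26 times NOTCH1 with MEOX2 and 26.7 ± 0.0176 times in NC (SD, n = 3 each), a ratio that varied little among the NC samples. The ratios and shares were chosen with earlier results of these data known. An exact permutation p below 0.1 was not possible for any of the 3 ratios and 4 shares. The shares of NOTCH2, NOTCH3 and NOTCH4 and the ratio of NOTCH2 to NOTCH3 did not overlap between the groups. The NOTCH1 share and the ratios of NOTCH2 and NOTCH3 to NOTCH1 overlapped. How often shares or ratios of other genes separate the groups was not tested.

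Among the ligands, JAG1 (chromosome 13, 3418572 to 3451511, minus strand) was the most abundant. It was at 1.12, 1.20 and 1.51 FPKM in the MEOX2 samples and at 1.31, 1.29 and 1.36 FPKM in NC, from 50 to 73 reads per library. The NC samples lay inside the range of the MEOX2 samples. The log2 change was -0.029 (95% interval -0.38 to 0.32; limma adjusted p = 0.970), and its sign changed without MEOX2 sample 1 (0.022). DLL1 (chromosome 8, 90486343 to 90492981, minus strand), a Delta-like ligand, had 2, 4 and 5 reads in the MEOX2 samples and 3, 2 and 2 in NC. JAG2 (chromosome 18, 68195138 to 68206717, minus strand) had 0 reads in the 3 MEOX2 samples and 2, 1 and 0 in NC. At this depth 3 reads correspond to 0.131 to 0.143 FPKM for DLL1 and 0.106 to 0.116 FPKM for JAG2, so no difference between groups was detectable for either.

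HES1 (ENSOARG00000020422, chromosome 1, 191624405 to 191627209, minus strand), the repressor most widely used as a Notch readout, was at 5.05, 2.62 and 5.23 FPKM in the MEOX2 samples and at 6.53, 7.57 and 5.60 FPKM in NC. All 3 MEOX2 samples lay below all 3 NC samples; by the same rule 9.33% of all genes tested were lower and 9.6% higher without overlap, 18.9% in all. The means were 4.30 ± 1.45 and 6.57 ± 0.986 FPKM (SD, n = 3 each), 1.53 times higher in NC. The log2 change was -0.55 (SE 0.21; 95% interval -1.03 to -0.070), with an unadjusted p of 0.0291 in limma and a limma adjusted p of 0.284, which did not pass the threshold. An exact two-sided permutation test on FPKM returned p = 0.1, the lower limit of the design. The summed mature adipocyte markers, given above, were also lower in each MEOX2 sample than in each NC sample. Stromal and preadipocyte markers (12 in the table, 10 tested, none called) summed to 22431 to 24834 FPKM with MEOX2 and 20420.1 to 21488 FPKM in NC. Most of that sum was COL1A1 (10594 ± 759 and 9410 ± 767 FPKM) and COL1A2 (7562 ± 463 and 6505 ± 261 FPKM, SD, n = 3 each). CD34, ICAM1, THY1 and PDGFRB had negative log2 changes (-0.54, -0.027, -0.024 and -0.021), and the other tested genes of that list had positive ones. Macrophage and leukocyte markers (11 in the table, 4 tested, none called) summed to 123.0 to 134.6 FPKM and 115.1 to 122.9 FPKM, with PTPRC at 3 reads in all libraries together. Most of that sum was CD14 (117.0 ± 7.01 and 105.2 ± 4.42 FPKM, SD, n = 3 each). The log2 changes of CD14 and LAPTM5 were positive (0.15 and 0.35), and those of CD163 and CD68 were negative (-0.48 and -0.29). The part of these cell type markers in the HES1 level was not tested.

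The HES1 values came from 44, 25 and 49 reads in the MEOX2 samples and 60, 71 and 53 reads in NC. With an exact Poisson 95% interval, which covers counting error only, MEOX2 sample 2 lay between 1.70 and 3.87 FPKM, below the interval of every NC sample. MEOX2 sample 1, at 3.67 to 6.78 FPKM, and MEOX2 sample 3, at 3.87 to 6.91 FPKM, each overlapped the interval of every NC sample. Those intervals were 4.98 to 8.40, 5.91 to 9.55 and 4.20 to 7.33 FPKM for NC samples 1 to 3. Without MEOX2 sample 2 the log2 change was -0.29 (limma adjusted p = 0.477), and with each of the 6 libraries left out it ranged from -0.68 to -0.29 with limma adjusted p values of 0.252 to 0.504.

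**Figure D2:**
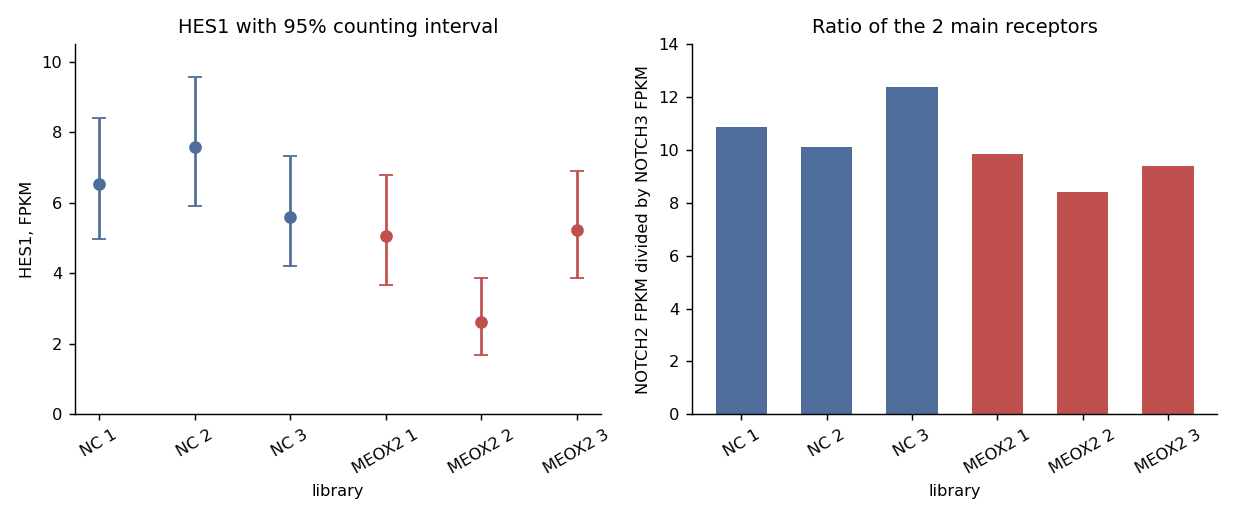
Left, HES1 in FPKM per library with its exact 95% Poisson counting interval; right, NOTCH2 FPKM divided by NOTCH3 FPKM in the same libraries (NC in blue, MEOX2 in red). MEOX2 sample 2, with 25 HES1 reads, is the lowest in both panels, and all MEOX2 samples have a ratio below the lowest NC value of 10.1.

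The 3 HEY genes, related repressors with known roles in vessels and the heart, were scarcely detected. HEY1 (chromosome 9, 55828300 to 55830806, minus strand) had 3, 5 and 5 reads in the MEOX2 samples and 0, 7 and 1 in NC. These counts correspond to 0.391 ± 0.0894 and 0.238 ± 0.338 FPKM (SD, n = 3 each), with both the lowest and the highest library in NC. HEYL (chromosome 1, 14030839 to 14043835, minus strand) had 1 read, in MEOX2 sample 3. HEY2 (chromosome 8, 12637522 to 12647466, minus strand) had 0 reads in all 6 libraries. For this gene 3 reads correspond to 0.225 to 0.246 FPKM per library, and the exact Poisson 95% interval of 0 reads reaches 0.277 to 0.302 FPKM. The markers of endothelial cells, in which HEY1 and HEY2 are known to be expressed, summed to 2.50 to 4.12 FPKM with MEOX2 and 2.32 to 3.68 FPKM in NC.

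Ordered by mean FPKM over the 6 libraries, the genes ran from NOTCH2 (56.9) through NOTCH3 (5.61), HES1 (5.43), NOTCH1 (2.13), JAG1 (1.30), HEY1 (0.315), DLL1 (0.134) and JAG2 (0.0181) to HEYL (0.0138) and HEY2 (0). NOTCH2 exceeded 90.1% of the 18740 genes with any read, and NOTCH3 and HES1 exceeded 51.4% and 50.8% of them. NOTCH3 and HES1 did not differ beyond their spread, since NOTCH3 was the higher in 4 of 6 libraries and the ranges overlapped. HEY1 and DLL1 overlapped as well, and so did JAG2, HEYL and HEY2. Every other neighbouring pair kept its order in 6 of 6 libraries without overlap of the ranges. For DLL1 over JAG2 this rests on 2 to 5 against 0 to 2 reads per library, too few to settle the order. For HES1 over NOTCH1 the gap was narrow, with the lowest HES1 value at 2.623 FPKM and the highest NOTCH1 value at 2.606 FPKM. That HES1 value had a counting interval of 1.70 to 3.87 FPKM.

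The rest of the pathway was read from 6 lists with 106 genes outside the 10, of which 99 were in the table and 75 were tested. By limma 3 of the 75 were higher with MEOX2 (TSPAN5, NOV and BHLHE40) and 1 was lower (ID1), while 71 were not called. Over all genes tested 1.51% were called higher and 1.16% lower. The median log2 change of the 75 was -0.028 and that of all genes tested was -0.00273. Limma voom called 5 of them, NRP1 in addition to those 4. An unadjusted p under 0.05 in limma was found for 10 of the 75, against 13.4% of all genes. Groups did not overlap in 20 of the 75, against 18.9%. The count was 1 of 5 for other receptors and ligands, 6 of 10 for receptor processing and 3 of 9 for glycosylation. It was 4 of 16 for ubiquitination and trafficking, 2 of 22 for the nuclear complex and 4 of 13 for commonly cited targets. The lists were chosen with earlier results of these data known.

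In the list of receptor processing and gamma-secretase, 1 of 10 tested genes rose and none fell. At an unadjusted p under 0.05 there were 4 (1 higher and 3 lower), against 13.4% of all genes. Groups did not overlap for 6 of the 10, against 18.9%, the largest such share among the 6 lists. The gene that rose was TSPAN5 (ENSOARG00000016064, chromosome 6, 26041511 to 26054455), a tetraspanin of the group that escorts the receptor-cutting protease ADAM10 to the cell surface. It was at 83.5, 76.7 and 75.1 FPKM in the MEOX2 samples and at 42.7, 45.2 and 40.8 FPKM in NC. The groups lay far apart relative to their spread, with a log2 change of 0.86 (SE 0.078; limma adjusted p = 0.00112) that passed in all 6 fits with a library left out. TSPAN14, another tetraspanin of that group, was at 12.3 ± 0.279 FPKM with MEOX2 against 15.4 ± 1.79 FPKM in NC without overlap and was not called (limma adjusted p = 0.226).

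Further genes of that list did not pass the test. FURIN, which makes the first cut in newly made receptors, was at 38.6 ± 2.09 and 47.4 ± 5.89 FPKM (SD, n = 3 each), and NCSTN, the nicastrin subunit of gamma-secretase, was at 31.1 ± 1.03 and 35.8 ± 1.53 FPKM, both without overlap of the groups, with limma adjusted p values of 0.250 and 0.290. ADAM17 had a log2 change of 0.14 (95% interval -0.018 to 0.29). ADAM10 had 1 read in all libraries together at a row on an unplaced scaffold (named here after its values were seen), and because ADAM10 is used by most cells, that value is not read as its level.

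In the list of other receptors and ligands, NOV (also called CCN3; chromosome 9, 57701139 to 57708761), a secreted matricellular protein reported to bind Notch1, rose. It was at 15.0, 13.9 and 10.7 FPKM with MEOX2 and at 7.73, 6.20 and 7.09 FPKM in NC. The log2 change was 0.82 (SE 0.14; limma adjusted p = 0.0174), and the call was lost without a filter on low genes (0.0672) and without MEOX2 sample 1, MEOX2 sample 2 or NC sample 2 (0.0624 to 0.0647). The other 4 genes tested of that list were not called: MFAP5, a microfibril protein, was at 175.0 ± 12.9 and 184.0 ± 5.25 FPKM, and MFAP2, CNTN1 and EGFL7 had log2 changes of 0.21, -0.15 and 0.17. EGFL7 turned to -0.025 without NC sample 3. DLL4 had 0 reads in all 6 libraries and DLK1, a non-canonical ligand and preadipocyte marker, had 2 reads, both in MEOX2 sample 2. NOTCH4 was at 0.633, 0.835 and 0.726 FPKM with MEOX2 and 0.503, 0.507 and 0.611 FPKM in NC, under the limit for testing (without a filter, limma adjusted p = 0.508). DLL4, DLK1 and NOTCH4 are named here after their values were seen.

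In the list drawn up for receptor glycosylation, 0 of 9 tested genes were called by limma or limma voom. At an unadjusted p under 0.05 there was 1, against 13.4% of all genes. The list includes CHPF and was not limited to enzymes shown to act on Notch. The gene at an unadjusted p under 0.05 was LFNG, the Fringe enzyme that tunes the response to Delta-like and Jagged ligands. It was at 2.91, 3.50 and 2.86 FPKM with MEOX2 and 4.34, 3.71 and 5.14 FPKM in NC. Its groups did not overlap, as in 3 of the 9 and in 18.9% of all genes tested. The log2 change of LFNG was -0.39 (95% interval -0.71 to -0.080, limma adjusted p = 0.234). POFUT1 and POGLUT1, which add fucose and glucose to the receptor, had log2 changes of 0.11 and -0.20. GXYLT2 was at 1.05, 4.54 and 1.22 FPKM with MEOX2 and 0.744, 0.729 and 0.964 FPKM in NC, from 3 to 19 reads, with MEOX2 sample 2 far above the others (log2 change 0.70, and 0.23 without that sample).

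Of 16 tested genes of ubiquitination and trafficking, 0 were called by limma or limma voom, and 0 had an unadjusted p under 0.05. MIB1 and MIB2, ubiquitin ligases that let the sending cell pull on the receptor, had log2 changes of 0.18 each (95% intervals -0.0092 to 0.37 and -0.11 to 0.46), and NEURL1 and NUMB had -0.20 and -0.14. Of 22 tested genes in the list drawn up for the nuclear complex, 0 were called by limma or limma voom and 0 had an unadjusted p under 0.05. That list was likewise not limited to genes shown to belong to the complex. RBPJ, the DNA-binding partner of the cut receptor, was at 48.6, 40.1 and 48.6 FPKM with MEOX2 and 41.7, 39.3 and 50.7 FPKM in NC, a log2 change of 0.061 (95% interval -0.20 to 0.33); it is named for its role, outside the rule for named genes. MAML2, TLE3 and HIF1AN, among those with the smallest p of that list, had log2 changes of -0.29, -0.23 and 0.18.

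Among commonly cited targets, BHLHE40 rose and ID1 fell, with 11 of 13 tested genes not called. At an unadjusted p under 0.05 there were 4 (1 higher and 3 lower), against 13.4% of all genes. Of the 13, 11 had a negative log2 change, against 6655 of all 13121 genes, and their median log2 change was -0.092. This list, like the others, was chosen with earlier results of these data known. BHLHE40, a repressor of the same helix-loop-helix class as HES1 that also responds to hypoxia and the clock, was at 76.6, 69.2 and 76.4 FPKM with MEOX2 and 50.4, 48.3 and 52.5 FPKM in NC. Its log2 change was 0.55 (SE 0.077; limma adjusted p = 0.00920), and the call was lost without MEOX2 sample 3 (0.0529) or NC sample 1 (0.0549). ID1, an inhibitor of helix-loop-helix factors that is better known as a BMP target, had a log2 change of -1.03 (limma adjusted p = 0.00371). NRP1, a semaphorin and VEGF co-receptor, was at 49.6, 44.6 and 47.2 FPKM with MEOX2 and 60.6, 57.6 and 59.8 FPKM in NC, without overlap and with a limma adjusted p of 0.0616 (0.0161 by limma voom). MYC (-0.34), ID3 (-0.33) and CDKN1A (0.15) were not called.

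**Figure D3:**
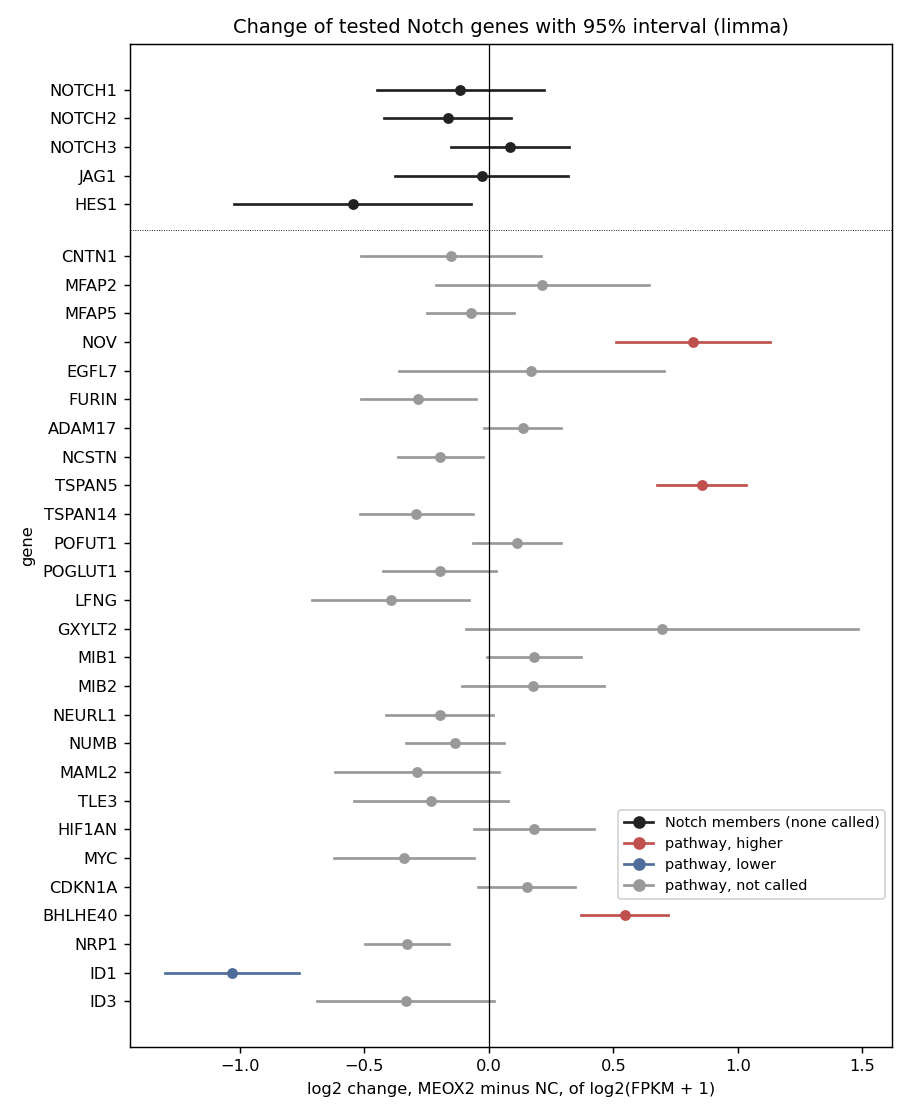
Log2 change (MEOX2 minus NC, on the log2(FPKM + 1) scale) of the 5 tested Notch genes, above the dotted line, and of 27 named pathway genes, with limma 95% intervals. The intervals of NOTCH1, NOTCH2, NOTCH3 and JAG1 include 0; NOV, TSPAN5 and BHLHE40 (red) and ID1 (blue) are the genes that passed an adjusted p of 0.05.

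NRARP, a small feedback inhibitor that Notch induces directly, had 0 reads in the 3 MEOX2 samples and 2, 2 and 1 reads in NC samples 1 to 3. These 5 reads are too few for a level, and the gene was below the limit for testing; without a filter its limma adjusted p was 0.0534. It is named here after its values were seen. HES4, HES5 and DTX1 had 0 reads in all libraries, and HES7 had 1 to 7 reads per library over 234 bases.

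Of 10352 tested genes with a symbol, those whose log2(FPKM + 1) followed HES1 most closely over the 6 libraries included ZFP36L1, MLEC, NDUFA4L2 and OSR1, with Pearson r from 0.986 to 0.995. The libraries share the 2 groups, and 134 genes had an r of at least 0.9, so these values are a description. ZFP36L1, an RNA-binding protein that destabilises messenger RNA, was at 57.6, 45.2 and 59.4 FPKM with MEOX2 and 65.8, 70.4 and 63.3 FPKM in NC. OSR1, a transcription factor of connective tissue progenitors, was at 37.6, 29.4 and 38.5 FPKM with MEOX2 and 45.9, 47.4 and 41.9 FPKM in NC. Both were lowest in MEOX2 sample 2 and highest in NC sample 2, as HES1 was. That likeness comes with their choice by correlation with HES1 over the same libraries. None of these 4 was called by limma (adjusted p values of 0.175 to 0.510).

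**Figure D4:**
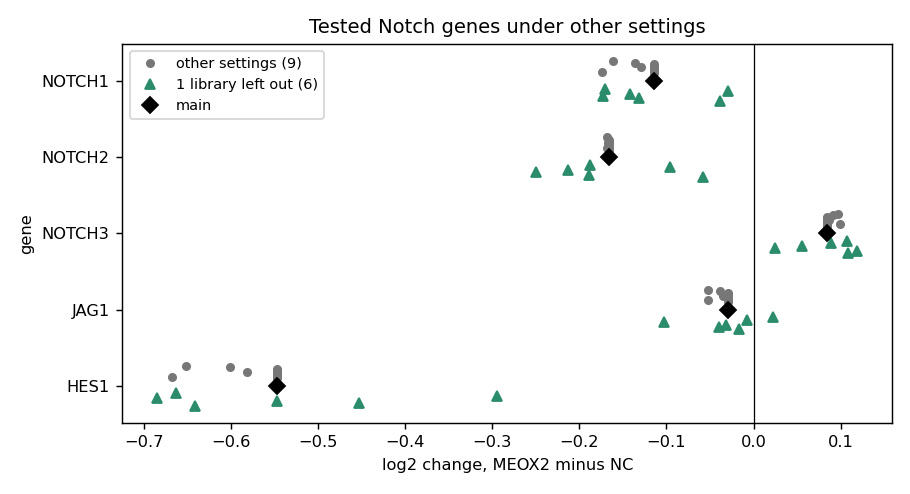
Log2 change (MEOX2 minus NC) of the 5 tested Notch genes under the main setting (diamond), 9 other settings (circles) and with 1 library left out (triangles). HES1 stays below 0, from -0.68 to -0.29 with libraries left out, and JAG1 lies on both sides of 0.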

How the data were processed

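The members and gene lists were chosen with earlier results of these data known. The authors deposited FPKM values per gene; the tools, per the submitters' processing notes (roles not stated), were HISAT2 2.0.5 and fastp, with CASAVA 1.8, DESeq2 1.20.0 and featureCounts 1.5.0-p3. The sources used here give neither the genome build nor the strand setting, so a gene's reads may include those of an overlapping, antisense or near-identical gene. FPKM times the deposited gene length (in bases, as another column) gave whole reads, within 0.001 of a read, for 100% of the nonzero values, and the implied library size was 0.967 to 1.02 times the read total.

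Genes averaging 1 FPKM or more (13121) were fitted as log2(FPKM + 1) with limma 3.58.1 in R 4.3.3 (trended eBayes, 2 groups, no covariates). P-values were adjusted over all of them by Benjamini-Hochberg, with a threshold of 0.05. On this scale the change of weakly expressed genes is understated. The fit was tested on simulated reads. Named pathway genes were those called and, in each list, up to 4 others with the smallest p; for the member with the smallest p, the 5 genes with the highest r. A pair of genes named by this rule is not reported here. Of 106 pathway genes, 98 were matched by symbol and 1 by a former symbol. Alternatives were other pseudocounts (0.1, 0.5), filters (none, 0.5 FPKM), TPM scaling, variance models, limma voom on the recovered reads, a replicate block and each library left out; those of the receptor ratio were added after seeing the data. Chi-square per gene between libraries of 1 group was 3.62 to 11.8, so none was a repeat of another within sampling noise. Python 3.11.15, numpy 2.4.6, pandas 2.3.3, scipy 1.17.1 and matplotlib 3.10.9 were used for the other steps.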

Additional observations from a re-analysis of the deposited data

How the results depend on the processing

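None of the 5 tested Notch genes was called in any of the 15 alternative fits, nor were the 9 with any read in the fit without a filter. The count of pathway genes called was 3 to 5 in every alternative. Over all genes, the count of 350 became 194 without a filter on low values, 574 with limma voom on recovered reads, and 117 to 276 with each library left out in turn, where fewer samples enter the fit. Of the single genes followed, JAG1 changed sign without MEOX2 sample 1 and EGFL7 without NC sample 3; with libraries left out in turn, the log2 change of JAG1 ran from -0.10 to 0.022 and that of EGFL7 from -0.025 to 0.36, and neither was called. The replicate numbers did not pair the samples (correlations of deviations -0.075, 0.020 and -0.00417 for numbers 1 to 3, and each MEOX2 sample correlated best with an NC sample of another number); with a replicate block, 242 genes, 0 Notch members and 4 pathway genes were called. HES1 rests on 25 to 71 reads per library, and HEY1, HEYL, HEY2, DLL1 and JAG2 on at most 7, which limits what can be detected.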
